A study of Mus musculus with 88 samples.

Results

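The 9 genes described here are Mmp2, Mmp3, Mmp9, Mmp10, Mmp11, Mmp12, Mmp13 and Mmp14, which encode matrix metalloproteinases, and Timp1, which encodes a secreted inhibitor of them. They were taken by gene symbol from the platform's annotation, updated by Entrez number, as 9 of 18069 genes with a named probe. Each of the 9 had exactly 1 probe, and all 9 were among the 13465 genes that were tested after the dimmest 25% had been left out by their mean over all arrays. The arrays came from 4 mouse tumours grown in the hind legs of C3H/HeNrs mice and were made of total RNA of the whole tumour. NR-S1 and SCCVII are labelled as squamous cell carcinomas that arose spontaneously in C3H/He mice, NFSa as a spontaneous C3H/He fibrosarcoma, and #8520 as a fibrosarcoma that radiation induced in a C3H mouse. Tumours received no irradiation, 30 Gy of carbon ions, 30 Gy of gamma rays or 50 Gy of gamma rays, each as a single dose, and were taken at 6 h, day 1 or day 3. The carbon-ion arm and the gamma-ray arm of each tumour had 2 untreated arrays of their own, so that 44 groups of 2 arrays made up the 88 arrays. Nothing in the labels ties both arrays of a group to different animals, and the p-values therefore measure the spread between these arrays, which may be technical.

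Matrix metalloproteinases are zinc enzymes that cut the proteins of the extracellular matrix, and most of them are secreted as inactive precursors. Mmp2 and Mmp9 are the gelatinases, Mmp3 and Mmp10 the stromelysins, Mmp12 the elastase of macrophages and Mmp13 a collagenase. Mmp14 sits in the cell membrane and, together with Timp2, activates the precursor of Mmp2, whereas Mmp11 is unusual in being activated inside the cell. In tumours these enzymes come from the cancer cells, from fibroblasts and from infiltrating leukocytes, and many of their genes are induced through AP-1, a dimer of Fos and Jun proteins.

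The promoters of 4 members are shown because they hold a match to the AP-1 motif, TGANTCA, named above as a route of induction. The sequences are from RefSeq on mouse build GRCm38.p6 and run over 130 bases upstream of the annotated start. Capitals mark matches to TGANTCA and to the TATA box TATAAA, and both strands were searched.
Mmp3, chr9:7445692-7445821, plus strand: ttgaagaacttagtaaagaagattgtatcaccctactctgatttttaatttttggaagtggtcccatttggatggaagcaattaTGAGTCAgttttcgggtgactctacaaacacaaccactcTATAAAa
Mmp10, chr9:7502212-7502341, plus strand: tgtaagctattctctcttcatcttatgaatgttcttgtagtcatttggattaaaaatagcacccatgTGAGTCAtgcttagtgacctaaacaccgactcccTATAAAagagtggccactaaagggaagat
Mmp12, second entry, chr9:7347244-7347373, plus strand: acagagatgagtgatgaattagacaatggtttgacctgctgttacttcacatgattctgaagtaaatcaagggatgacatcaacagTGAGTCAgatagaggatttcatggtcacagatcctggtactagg
Mmp13, chr9:7272384-7272513, plus strand: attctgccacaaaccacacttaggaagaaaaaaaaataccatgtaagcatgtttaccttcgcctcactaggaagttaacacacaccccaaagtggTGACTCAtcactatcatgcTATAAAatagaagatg
The match occurred in 4 of the 8 entries found for 7 of the 9 members, and all 4 lie on chromosome 9. The AP-1 match began 46 bases before the start in Mmp3, 63 in Mmp10, 44 in the second entry of Mmp12 and 35 in Mmp13. Of the 32851 mouse promoter entries searched over 250 bases, 6.75% held TGANTCA and 12.4% held TATAAA. The ETS motif AGGAAG, which was present in 29.5% of all entries, was found in 5 of the 8 member entries. A motif of the transcription factor NF-kB was also searched, and it was found in 2 of the 8 member entries against 45.8% of all entries. The windows of Mmp11, Mmp14, Timp1 and the first entry of Mmp12 held no TGANTCA. These matches describe letters in the window and not bound sites. Mmp2 and Mmp9 had no entry.

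Values are given as log2 intensity, on a scale where 0 lies close to the median probe of an array, and a change is the difference of log2 means with its standard error from limma. Changes were taken against the untreated arrays of the same tumour and arm, and the change against all 4 untreated arrays of the tumour is called the pooled-reference value. Members were called at a Benjamini-Hochberg adjusted p under 0.05 over all genes tested. On 8 arrays, those of 50 Gy gamma rays in SCCVII and #8520 at day 1 and day 3, the lowest intensities were raised, with a 1st percentile of 0.297 to 0.378 against 0.0128 to 0.134 on the other 80. On these arrays the median change of 10 keratinocyte markers was 1.69 at day 1 and 1.76 at day 3 in SCCVII, and 1.85 and 1.83 in #8520. The part of the raised floor in the members' values there was not tested. The median change of all genes moved by over 0.1 from 0 in several comparisons, between -0.226 and 0.10. The member changes are given without subtracting that shift, and their p-values test a difference from 0.

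The labelled tumour types were set against marker genes. The summed intensity of 11 keratinocyte and epithelial genes was 1025 to 1653 in the untreated arrays of NR-S1, but 6.18 to 11.6 in those of SCCVII, 5.67 to 7.09 in NFSa and 2.76 to 3.14 in #8520. The epithelial markers were therefore at the fibrosarcomas' level in SCCVII, which is labelled as a squamous cell carcinoma. The untreated arms also differed in content: 10 skeletal muscle genes summed to 429 to 432 in the carbon-ion arm of SCCVII and to 37.2 to 40.2 in its gamma-ray arm. Among the members, 8 of 36 were called higher and 13 lower in the untreated gamma-ray arm than in the carbon-ion arm of the same tumour, against 20.9% and 24.2% of all gene pairs. The widest gaps were those of Mmp3 in SCCVII, -2.38, Mmp13 in NR-S1, -1.53, Mmp13 in SCCVII, -1.13, and Mmp12 in #8520, -1.05. In NR-S1, Mmp10 and Mmp11 were also lower in the gamma-ray arm, by differences of -0.90 and -0.96. The arm and the beam given in it cannot be told apart. In whole tumours, fewer cells of a type and less RNA per cell cannot be told apart.

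Among untreated tumours, Mmp3 differed most of the members, being highest in #8520 and lowest in SCCVII. Of 54 pairs of member and tumour comparison, 51 were called, against 65.9% of all gene pairs. Mmp3 lay at 6.61 ± 0.18 (SD, n = 4) in #8520, 5.06 ± 0.26 in NFSa, 2.03 ± 0.38 in NR-S1 and 0.21 ± 1.38 in SCCVII. SCCVII was thus 6.40 below #8520 on the log2 scale (change -6.40, adjusted p = 3.8e-53). The wide spread in SCCVII comes from its arms, with arrays at 1.26 and 1.55 in the carbon-ion arm and -1.06 and -0.90 in the gamma-ray arm. Both arms nevertheless gave the same order of all 4 tumours for Mmp3.

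**Figure D1:**
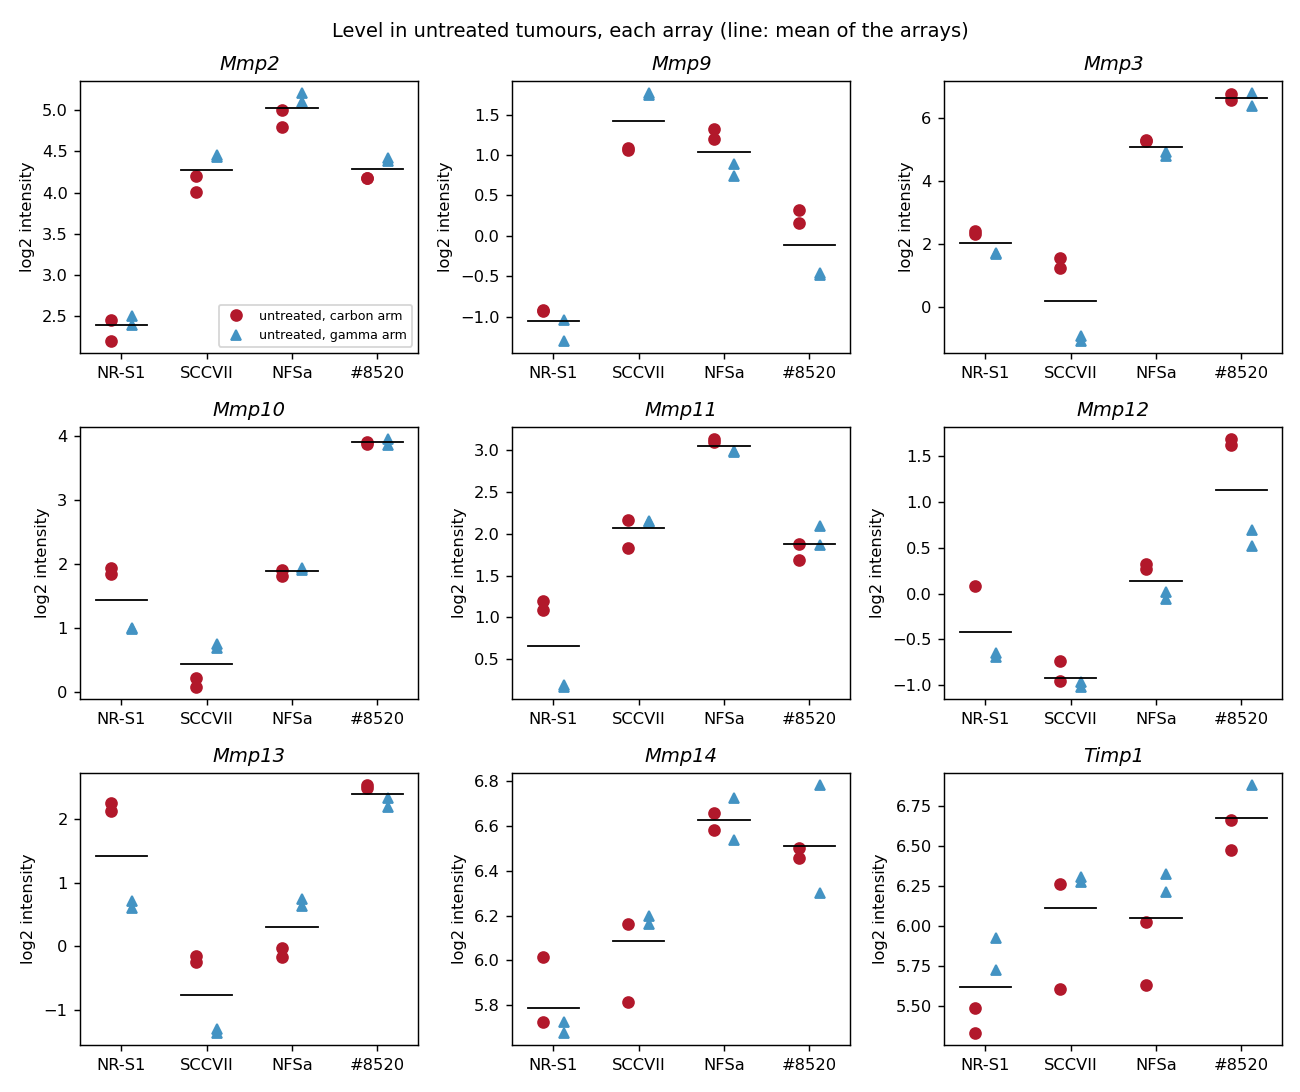
Untreated log2 intensity of each member (9 panels) in the 4 tumours, with a circle for each array of the carbon-ion arm, a triangle for each array of the gamma-ray arm and a line at their mean. Mmp3 falls from 6.61 in #8520 to 0.21 in SCCVII, and the arms lie apart for Mmp3 and Mmp13 in NR-S1 and SCCVII.

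Mmp10, the other stromelysin, followed the same order, with 3.91 ± 0.04 in #8520, 1.90 ± 0.05 in NFSa, 1.45 ± 0.52 in NR-S1 and 0.44 ± 0.34 in SCCVII (n = 4 each). NFSa and NR-S1 differed by 0.03 in the carbon-ion arm (adjusted p = 0.76), so that this step rests on the gamma-ray arm. Mmp13 was highest in #8520 at 2.38 ± 0.16 and lowest in SCCVII at -0.76 ± 0.65. Its level in NR-S1 was 2.12 and 2.25 in the carbon-ion arm but 0.61 and 0.71 in the gamma-ray arm, and in the gamma-ray arm NR-S1 and NFSa differed by -0.03 (adjusted p = 0.84). Mmp12, the macrophage elastase, was likewise highest in #8520, at 1.13 ± 0.61, and lowest in SCCVII, at -0.92 ± 0.12. An untreated array of NR-S1 in the carbon-ion arm gave no Mmp12 value.

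The gelatinases were low in NR-S1. Mmp2 was 2.39 ± 0.13 there against 4.28 ± 0.21 in SCCVII, 4.29 ± 0.13 in #8520 and 5.03 ± 0.17 in NFSa, and SCCVII and #8520 did not pass the test between them (-0.02, adjusted p = 0.87). Mmp9 was -1.05 ± 0.18 in NR-S1, -0.12 ± 0.41 in #8520, 1.04 ± 0.27 in NFSa and 1.42 ± 0.39 in SCCVII. The last step did not pass in the carbon-ion arm, where it was -0.18 (adjusted p = 0.13). Macrophage marker genes were also lowest in NR-S1, where 14 of them summed to 183 to 221 against 628 to 1019 in the other 3 tumours, and their part in the gelatinase levels was not tested.

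Mmp11 was 3.05 ± 0.08 in NFSa, 2.07 ± 0.16 in SCCVII, 1.88 ± 0.16 in #8520 and 0.66 ± 0.56 in NR-S1. The step from SCCVII to #8520 was 0.19 and was lost when any of 3 untreated arrays was left out (0.10 to 0.14). Mmp14 and Timp1 varied least between tumours. Mmp14 ran from 5.78 ± 0.15 in NR-S1 to 6.63 ± 0.08 in NFSa, and NFSa and #8520 did not pass the test between them (0.11, adjusted p = 0.28). Timp1 ran from 5.62 ± 0.26 in NR-S1 to a fitted mean of 6.72 in #8520, which had a value on 3 of its 4 untreated arrays, and SCCVII and NFSa did not pass (0.07, adjusted p = 0.6).

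After irradiation the members were called higher more often than lower under each beam and dose, with the most higher calls after carbon ions. Carbon ions gave 52 higher and 17 lower calls over 108 pairs of member, tumour and time, where 18.1% and 18.5% of all gene pairs were called. Gamma rays of 30 Gy gave 31 higher and 24 lower calls, against 14% and 15.2% of all pairs. Gamma rays of 50 Gy gave 48 higher and 22 lower calls, against 17.8% and 26%. In the 8 of these comparisons that use no array of raised floor, 25 of 72 pairs were called higher and 15 lower, against 15.5% and 16.6% of all gene pairs. The members were chosen with earlier results of these data known, which may raise their counts above the shares of all gene pairs. These comparisons share untreated arrays within a tumour and arm, and the gamma doses share them with each other. With the pooled reference, the lower calls after 30 Gy gamma rays rose in number from 24 to 37, with 22.6% of all gene pairs. Both irradiated arrays lay above all 4 untreated arrays of their tumour in 52 carbon-ion pairs and below them in 11, while 21.5% and 21.3% of all gene pairs did so.

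**Figure D2:**
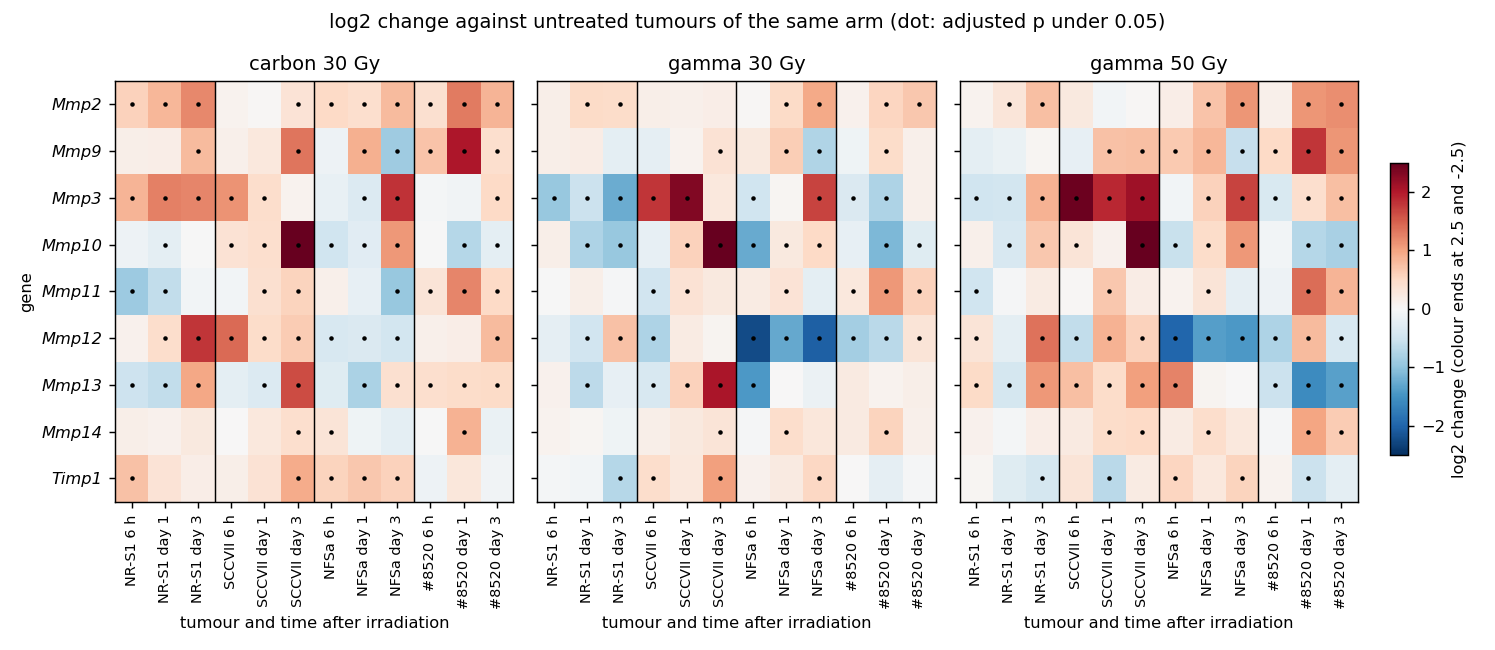
Log2 change of the 9 members (vertical) in the 4 tumours at 6 h, day 1 and day 3 (horizontal) against the untreated arrays of the same arm, in a panel for carbon ions, 30 Gy and 50 Gy gamma rays, with a dot where the adjusted p is under 0.05. Mmp2 was called only upwards, Mmp10 has its strongest colours in SCCVII at day 3, and Mmp12 is low in NFSa after gamma rays.

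Mmp2, the gelatinase that cuts collagen IV, was called higher in 22 of 36 comparisons and lower in 0, against 16.6% and 19.9% of all gene pairs. In NR-S1 its carbon-ion arrays were 2.20 and 2.46 untreated, 2.87 and 2.93 at 6 h, 3.10 and 3.21 at day 1 and 3.48 and 3.57 at day 3. All these irradiated arrays lay above all 4 untreated arrays of the tumour, as both arrays did in 21.5% of all gene pairs after carbon ions. The change grew from 0.57 ± 0.10 to 0.83 ± 0.10 and 1.20 ± 0.10 (adjusted p = 1.1e-05, 3.8e-09 and 6.2e-15), the last being 2.29-fold. In #8520 the highest carbon-ion value came at day 1, where arrays of 5.43 and 5.52 stood against 4.18 and 4.18, a change of 1.30 ± 0.10 or 2.46-fold (adjusted p = 1.3e-15). At day 3 that change was 0.84. After 50 Gy gamma rays, on arrays of raised floor, Mmp2 was 5.50 and 5.51 at day 1 and 5.55 and 5.60 at day 3 against 4.38 and 4.42, with changes of 1.10 and 1.17.

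Gamma rays raised Mmp2 as well. In NFSa the arrays at day 3 were 6.00 and 6.20 after 30 Gy and 6.21 and 6.30 after 50 Gy, against 5.10 and 5.20 untreated. These irradiated arrays lay above all 4 untreated arrays of the tumour, with changes of 0.95 ± 0.10 and 1.10 ± 0.10 (adjusted p = 5e-11 and 3.3e-13). In SCCVII, by contrast, carbon ions at day 3 were the only call, at 0.34, and it was lost without replicate 2 of either group (0.24) and with the pooled reference (0.17). With the pooled reference, the 30 Gy gamma-ray changes there, 0.31, 0.29 and 0.34, were called instead. Over all 36 comparisons, both irradiated arrays lay above all 4 untreated arrays in 28 for Mmp2 and below them in 0, where 20.3% and 23.2% of all gene pairs did so.

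Mmp9, the gelatinase made by neutrophils, macrophages and osteoclasts, was highest at day 1 in both fibrosarcomas and at day 3 in both tumours labelled as carcinomas after carbon ions. In #8520 its arrays rose from 0.15 and 0.31 untreated to 2.18 and 2.31 at day 1 after carbon ions, a change of 2.02 ± 0.10 or 4.04-fold (adjusted p = 1.1e-22). The 6 h and day 3 changes were 0.72 and 0.43, and 1.07 and 0.78 with the pooled reference. After 30 Gy gamma rays the same tumour gave 0.45 at day 1, and 0.10 with the pooled reference, which was not called. After 50 Gy it gave 1.80 ± 0.10 (adjusted p = 5e-21), from -0.48 and -0.46 to 1.33 and 1.33, on arrays of raised floor.

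In NFSa, Mmp9 rose and then fell under all 3 irradiations. At day 1 the change was 0.90 ± 0.10 after carbon ions, 0.61 ± 0.10 after 30 Gy and 0.83 ± 0.10 after 50 Gy of gamma rays. Against all 4 untreated arrays these were 1.12, 0.39 and 0.61. At day 3 it was -0.89 ± 0.10, -0.75 ± 0.10 and -0.57 ± 0.10 (adjusted p = 2.3e-10, 4.8e-08 and 1.2e-05). The carbon-ion arrays at day 3 were 0.36 and 0.38, below the 1.20 and 1.32 of the untreated ones. No irradiated array at day 3 reached any of the 4 untreated arrays, where 23.2% of all gene pairs had both arrays below them. In SCCVII the rise came at day 3, from 1.06 and 1.09 to 2.37 and 2.46 after carbon ions, a change of 1.34 ± 0.10 (adjusted p = 1.2e-15). After 50 Gy, on arrays of raised floor, its changes in SCCVII at day 1 and day 3 were 0.73 and 0.75, and 1.19 and 1.22 after quantile normalization. NR-S1 had a carbon-ion change of 0.79 ± 0.10 at day 3 (adjusted p = 4.4e-09).

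Markers of osteoclasts, neutrophils and macrophages also changed after carbon ions. The summed intensity of 7 osteoclast genes was 22.7 to 23.8 in untreated #8520 and 92.4 to 95.9 at day 1. In SCCVII this sum was 20.8 on both untreated arrays and 104 to 113 at day 3. In NFSa the sum was 61.5 to 61.9 untreated, 82.2 to 90.2 at day 1 and 49.6 to 52.9 at day 3, and in NR-S1 it was 47.0 to 47.8 untreated and 78.7 to 83.5 at day 3. In #8520 after 50 Gy gamma rays at day 1 it was 30.3 to 35.3 against 25.5 to 25.8, where Mmp9 changed by 1.80. Of 8 neutrophil markers tested, 5 were higher and 1 lower in #8520 at day 1 after carbon ions, with a median of 1.16, and 6 higher and 0 lower in NR-S1 at day 3, with a median of 2.19. In NFSa 5 were higher at day 1, with a median of 1.84, and 6 at day 3, with a median of 1.33, where Mmp9 was lower. In SCCVII at day 3 2 were higher and 3 lower, with a median of -0.12. Macrophage markers at day 3 were higher for 11 of 12 in NR-S1, with a median of 2.11, and for 9 of 12 in SCCVII, with a median of 0.74. The part of these cells in the Mmp9 values was not tested.

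Mmp14, the membrane-bound activator of Mmp2, had changes from -0.25 to 0.99. It was called higher in 11 of 36 comparisons and lower in 0, against 16.6% and 19.9% of all gene pairs. Both irradiated arrays lay above all 4 untreated arrays in 18 and below them in 1, where 20.3% and 23.2% of all gene pairs did so. Of the 11 higher calls, 8 were lost after quantile normalization, of which 3, after 50 Gy, turned and 5 were no longer called. Those 5 were SCCVII at day 3 after carbon ions and after 30 Gy gamma rays, at 0.22 and 0.10, and NFSa at 6 h after carbon ions and at day 1 after 30 Gy and 50 Gy gamma rays, at 0.22, 0.22 and 0.24 (limma adjusted p = 0.099, 0.57, 0.13, 0.17 and 0.11). The largest carbon-ion change was in #8520 at day 1, where arrays of 7.22 and 7.46 lay above 6.46 and 6.50, a change of 0.86 ± 0.13 (adjusted p = 1.1e-07). The 30 Gy gamma-ray change at that time was 0.56, and 0.32 (adjusted p = 0.079) without replicate 1 of the gamma-ray arm's untreated arrays. After 50 Gy, on arrays of raised floor, it was 0.99, and 0.35 after quantile normalization. The 50 Gy changes of Mmp14 in SCCVII, 0.45 at day 1 and 0.49 at day 3, and in #8520 at day 3, 0.64, turned to -0.21, -0.21 and -0.42 after quantile normalization, so that no direction is given for them.

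Mmp3, a stromelysin that cuts many matrix proteins and activates other proteases of the family, went in opposite directions after the 2 beams in NR-S1. After carbon ions its arrays were 3.12 and 3.29 at 6 h, 3.51 and 3.72 at day 1 and 3.47 and 3.69 at day 3, against 2.31 and 2.41 untreated. After 30 Gy gamma rays they were 0.74 and 0.76, 1.16 and 1.20, and 0.43 and 0.48, against 1.70 and 1.70. All carbon-ion arrays lay above all 4 untreated arrays and all 30 Gy gamma-ray arrays below them. Of all gene pairs, 20.3% had both arrays above and 23.2% below. The changes were 0.85 ± 0.10, 1.26 ± 0.10 and 1.22 ± 0.10 after carbon ions (adjusted p = 3.1e-09, 2.3e-14 and 7.5e-15) and -0.95 ± 0.10, -0.53 ± 0.10 and -1.25 ± 0.10 after gamma rays (adjusted p = 1.6e-10, 0.00013 and 1.4e-14). After 50 Gy it fell by 0.50 and 0.46 at 6 h and day 1 and rose by 0.88 at day 3 (adjusted p = 7e-10), with arrays of 2.50 and 2.66 that also lay above the carbon-ion arm's untreated ones. With the pooled reference the day 3 change after 50 Gy was 0.55, the earlier ones were -0.83 and -0.79, and that after 30 Gy at day 1 was -0.85.

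In NFSa, Mmp3 rose at day 3 under each irradiation. The day 3 arrays were 7.06 and 7.11 after carbon ions against 5.27 and 5.29, and 6.44 and 6.64 after 30 Gy gamma rays against 4.77 and 4.91. The changes were 1.81 ± 0.10 (3.5-fold), 1.70 ± 0.10 and, after 50 Gy, 1.69 ± 0.10 (adjusted p = 3.7e-21, 2.2e-19 and 1.8e-19). At 6 h the change after carbon ions was -0.18 and not called.

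In SCCVII the reading of Mmp3 depends on the untreated arm. After 30 Gy gamma rays the changes at 6 h, day 1 and day 3 were 1.80, 2.32 and 0.26, and 0.60, 1.13 and -0.93 with the pooled reference. After 50 Gy they were 2.46, 1.89 and 2.12, and 1.27, 0.70 and 0.93 with the pooled reference, those of day 1 and day 3 on arrays of raised floor. The 10 skeletal muscle genes, which were low in this untreated arm, had median changes of 3.16, 3.65 and 0.26 after 30 Gy and 3.53, 1.25 and 3.59 after 50 Gy, with 9, 10 and 4 and then 10, 10 and 10 of them higher. After carbon ions, where the untreated arm was high in muscle, their medians were -0.30, 1.09 and -0.53. The part of muscle in the Mmp3 values was not tested. After carbon ions at 6 h it was 1.12, with arrays of 2.52 and 2.53 that lay above all 4 untreated arrays, and 2.31 with the pooled reference. In #8520, where Mmp3 was highest untreated, 30 Gy gamma rays lowered it at day 1 to 5.75 and 5.85 from 6.37 and 6.76, a change of -0.77 ± 0.10 (adjusted p = 1.9e-08). Its changes there after 50 Gy at day 1 and day 3, 0.41 and 0.75, turned to -0.47 and -0.22 after quantile normalization, so that no direction is given for them.

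Mmp10, the second stromelysin, had the largest change of any member. In SCCVII at day 3 its arrays were 3.92 and 3.92 after carbon ions against 0.08 and 0.22 untreated. They were 3.49 and 3.71 after 30 Gy of gamma rays and, on arrays of raised floor, 3.54 and 3.57 after 50 Gy, against 0.69 and 0.75. All 6 irradiated arrays stood far above all 4 untreated ones. The changes were 3.77 ± 0.09 or 13.6-fold after carbon ions (adjusted p = 2.6e-38), 2.88 ± 0.09 or 7.35-fold after 30 Gy (adjusted p = 1.7e-32) and 2.83 ± 0.09 or 7.13-fold after 50 Gy (adjusted p = 2.1e-33). With the pooled reference they were 3.48, 3.16 and 3.12. At 6 h and day 1 in SCCVII the changes lay between -0.20 and 0.57, and between 0.07 and 0.85 with the pooled reference.

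NFSa showed a fall of Mmp10 followed by a rise. At 6 h the arrays were 1.33 and 1.41 after carbon ions, 0.64 and 0.68 after 30 Gy and 1.21 and 1.53 after 50 Gy, all below the 4 untreated arrays of 1.82 to 1.94. The changes were -0.50 ± 0.09, -1.27 ± 0.09 and -0.56 ± 0.09 (adjusted p = 5.4e-06, 2e-17 and 5.9e-07). At day 3 they were 1.08 ± 0.09, 0.51 ± 0.09 and 1.08 ± 0.09 (adjusted p = 6.3e-16, 3.3e-06 and 1.6e-15). In #8520, the tumour with the highest untreated level, Mmp10 fell at day 1, by 0.71 after carbon ions and by 1.13 after 30 Gy gamma rays (adjusted p = 1.1e-09 and 2.5e-16). In NR-S1 it fell after 30 Gy gamma rays by 0.76 at day 1 and 0.94 at day 3 (adjusted p = 6.6e-10 and 2.8e-13), and the pooled-reference changes were -1.21 and -1.39.

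**Figure D3:**
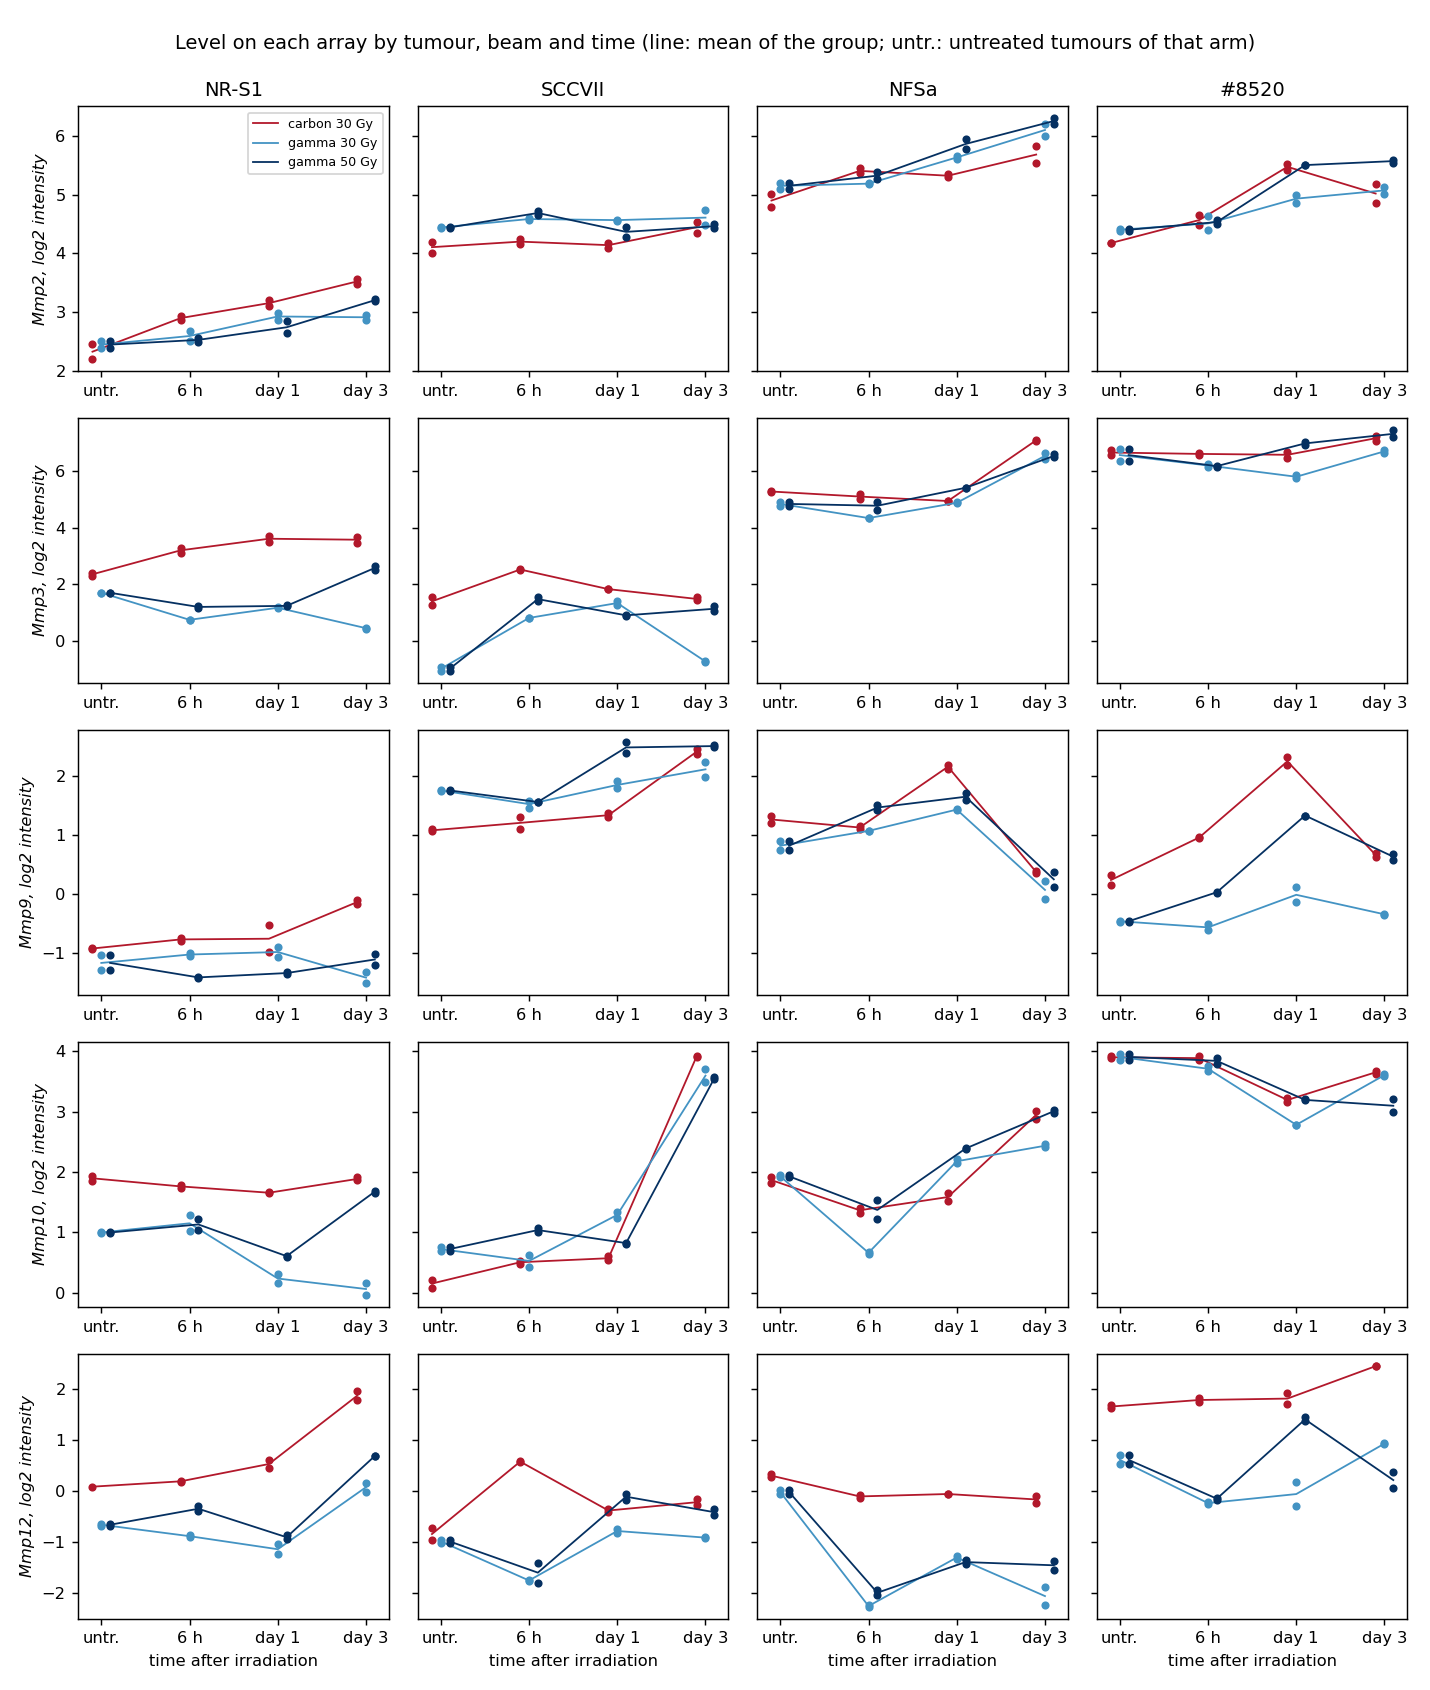
Log2 intensity of Mmp2, Mmp3, Mmp9, Mmp10 and Mmp12 (panel rows) in the 4 tumours (panel columns) by time, with each array as a point and carbon ions, 30 Gy and 50 Gy gamma rays in separate colours; the gamma-ray arm's untreated arrays are drawn for both doses. Mmp10 of SCCVII reaches 3.49 to 3.92 at day 3 under all 3, and Mmp3 of NR-S1 parts between the beams.

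Mmp11, first known from the stroma of carcinomas, rose in #8520 at day 1. The arrays were 2.99 and 3.04 after carbon ions against 1.69 and 1.88, and 2.99 and 3.12 after 30 Gy gamma rays against 1.87 and 2.09. These irradiated arrays lay above all 4 untreated arrays, as both arrays did in 20.3% of all gene pairs. The changes were 1.23 ± 0.10 and 1.07 ± 0.10 (adjusted p = 2.6e-15 and 1.8e-13). After 50 Gy, on arrays of raised floor, the change was 1.40 ± 0.10 (adjusted p = 7.6e-18). Of 14 fibroblast markers, 13 were higher after carbon ions at that point with a median of 0.55, 4 after 30 Gy with a median of 0.21 and 11 after 50 Gy with a median of 0.53, and their part was not tested.

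NFSa went the other way for Mmp11, from 3.09 and 3.13 to 2.16 and 2.19 at day 3 after carbon ions, a change of -0.94 ± 0.10 (adjusted p = 9.2e-12). The 30 Gy gamma-ray change was -0.24 and not called. In NR-S1 a carbon-ion change of -0.90 at 6 h was -0.42 with the pooled reference, and one of -0.62 at day 1 was -0.14 and no longer called.

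Mmp12, the elastase of macrophages, fell in NFSa after gamma rays, and by less after carbon ions. At 6 h after 30 Gy its arrays were -2.28 and -2.25 against -0.06 and 0.01 untreated, and at day 3 they were -2.24 and -1.89. The changes were -2.24 ± 0.11 at 6 h, -1.29 ± 0.11 at day 1 and -2.04 ± 0.11 at day 3 (adjusted p = 1.2e-22, 4.8e-14 and 1.9e-21), and after 50 Gy -1.98, -1.38 and -1.44. The 6 h value became -1.38 when all arrays were given the highest floor of any array, a log2 value of -1.40. After carbon ions the changes were -0.41, -0.36 and -0.47, and that of day 1 was lost when any array of either group was left out (-0.33 to -0.39). Against all 4 untreated arrays they were -0.25, -0.20 and -0.31, and that of day 1 was not called (adjusted p = 0.11). The summed macrophage markers of NFSa were 732 to 834 untreated and 830 to 848 at 6 h after 30 Gy, and 2 of 12 tested were higher and 3 lower there, with a median of -0.08. At day 1 after 30 Gy 3 were higher and 3 lower, with a median of -0.01, and at day 3 7 were higher and 2 lower, with a median of 0.51. After 50 Gy 2 were higher and 8 lower at 6 h, with a median of -0.40, 1 higher and 6 lower at day 1, with a median of -0.31, and 6 higher and 2 lower at day 3, with a median of 0.48. The part of these cells in the Mmp12 values was not tested.

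In NR-S1, Mmp12 rose at day 3 to 1.78 and 1.95 after carbon ions against the single untreated value of 0.08, a change of 1.79 ± 0.13 (adjusted p = 9.9e-17). That reference is 1 array, assumed to vary like the other groups, from which the spread is taken; the pooled reference has 3 values and gave 2.16. After gamma rays it rose by 0.74 at 30 Gy and by 1.35 at 50 Gy, and by 0.36 and 0.98 with the pooled reference. Macrophage markers rose with it: 11 of 12 were higher after carbon ions with a median of 2.11, and their sum went from 183 to 190 untreated to 872 to 874, and their part was not tested. In SCCVII, Mmp12 rose early, from -0.96 and -0.74 to 0.57 and 0.58 at 6 h after carbon ions, a change of 1.42 ± 0.11 (adjusted p = 4.9e-15). There 2 of 12 macrophage markers were higher and 2 lower, with a median of -0.07. At the same time after 30 Gy gamma rays it changed by -0.77, and by -0.41 with the common floor. In #8520 the carbon-ion change was 0.79 ± 0.11 at day 3 (adjusted p = 2.6e-08), and the 30 Gy gamma-ray change was -0.85 ± 0.11 at 6 h (adjusted p = 7.2e-09). With the pooled reference these were 1.32 and -1.37.

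Mmp13, a collagenase that cuts fibrillar collagen, rose at day 3 in SCCVII, as Mmp10 did. Its arrays were 1.39 and 1.48 after carbon ions against -0.24 and -0.16, and 0.42 and 1.01 after 30 Gy gamma rays against -1.35 and -1.30. The changes were 1.63 ± 0.13 and 2.04 ± 0.13 (adjusted p = 1.8e-15 and 4.7e-19), and 2.20 and 1.48 with the pooled reference. After 50 Gy, on arrays of raised floor, the change was 1.03, and 0.47 with the pooled reference. At day 1 in SCCVII after 50 Gy it was 0.45, and it turned to -1.05 after quantile normalization and to -0.11 with the pooled reference, so that no direction is given. In NR-S1 carbon ions raised Mmp13 at day 3 to 3.13 and 3.17 from 2.12 and 2.25, a change of 0.97 ± 0.13 (adjusted p = 5.8e-09), or 1.73 with the pooled reference.

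In NFSa at 6 h the gamma doses moved Mmp13 in opposite directions. Its arrays were -1.01 and -0.48 after 30 Gy and 1.79 and 2.06 after 50 Gy, against 0.64 and 0.75 untreated. Those of 30 Gy lay below all 4 untreated arrays and those of 50 Gy above them, where 23.2% and 20.3% of all gene pairs did so. The changes were -1.43 ± 0.13 and 1.23 ± 0.13 (adjusted p = 6.7e-13 and 2.1e-11). At day 1 and day 3 the changes at both doses lay between -0.15 and 0.06. Against all 4 untreated arrays they were 0.40 and 0.24 after 30 Gy and 0.46 and 0.40 after 50 Gy, and all but that of 30 Gy at day 3 were called (adjusted p = 0.0034, 0.065, 0.00095 and 0.0022). In #8520 it fell by 0.54 at 6 h after 50 Gy and, on the arrays of raised floor, by 1.57 at day 1 and 1.36 at day 3.

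Timp1, the inhibitor, was among the members with the fewest calls, 10 higher and 4 lower of 36, against 16.6% and 19.9% of all gene pairs. Both irradiated arrays lay above all 4 untreated arrays in 14 comparisons and below them in 2, where 20.3% and 23.2% of all gene pairs did so. In SCCVII at day 3 it was 6.74 and 6.99 after carbon ions against 5.61 and 6.26, a change of 0.93 ± 0.15 (adjusted p = 1.1e-06), and 0.60 without replicate 2 of the carbon-ion arm's untreated arrays. After 30 Gy gamma rays it was 7.31 and 7.31 against 6.28 and 6.30, a change of 1.02 ± 0.15 (adjusted p = 2.3e-07), and 0.58 after quantile normalization. The irradiated arrays of both beams lay above all 4 untreated arrays. In NR-S1 it rose by 0.73 ± 0.15 at 6 h after carbon ions (adjusted p = 8.4e-05) and fell by 0.70 at day 3 after 30 Gy gamma rays (adjusted p = 0.00013). The carbon-ion changes of NFSa, 0.55, 0.67 and 0.58, were lost without replicate 1 of that arm's untreated arrays, at 0.35, 0.47 and 0.39. After quantile normalization they were 0.20, which was not called (adjusted p = 0.12), 0.37 and 0.39, and against all 4 untreated arrays 0.33, 0.45 and 0.37. In #8520 no carbon-ion or 30 Gy gamma-ray change of Timp1 was called. The gamma-ray changes there are taken against a single untreated array, at 6.88, assumed to vary like the other groups, and their standard error is 0.18 against 0.15 after carbon ions. Its 50 Gy change in SCCVII at day 3, 0.20 and not called, turned to -0.36 after quantile normalization.

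The beams were compared by subtracting the change after 30 Gy gamma rays from that after 30 Gy carbon ions, each against its own untreated arrays. Of 108 member differences by tumour and time, 34 were called higher and 12 lower after carbon ions, against 10.4% and 8.53% of all gene pairs. Mmp12 was above 0 in all 12 tumour and time points, with a range of 0.26 to 2.19 and 9 calls. The pooled reference is no separate check of this. Untreated Mmp12 was lower in the gamma-ray arm of every tumour, with differences of -1.05 to -0.14, so the beam differences could only grow with it. The differences were largest at 6 h in SCCVII, 2.19 ± 0.16, and NFSa, 1.83 ± 0.16 (adjusted p = 9.4e-17 and 7.7e-13), the latter being 0.97 with the common floor. At day 3 in NFSa the difference was 1.58 ± 0.16 (adjusted p = 6.6e-12), and 0.91 with the common floor. The 12 points are not independent, since the times of a tumour share untreated arrays, and the 3 of NR-S1 rest on the single untreated value of its carbon-ion arm.

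Mmp3 in NR-S1 gave the widest beam difference, 1.80 ± 0.15 at 6 h, 1.78 ± 0.15 at day 1 and 2.47 ± 0.15 at day 3 (adjusted p = 1.6e-14, 1.8e-13 and 3.4e-20). With the pooled reference these were 2.45, 2.44 and 3.12. In SCCVII the differences of Mmp3, -0.67, -1.89 and -0.17, became 1.71, 0.49 and 2.21, so that no direction is given for them. For Mmp9, the carbon-ion change was higher by 1.57 ± 0.15 in #8520 at day 1 (adjusted p = 1.4e-12) and by 1.04 ± 0.15 in NR-S1 at day 3 (adjusted p = 6.7e-08). In SCCVII at day 3 it was higher by 0.98, but by 0.30 with the pooled reference.

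For Mmp10 the beams differed by 0.93 ± 0.12 in NR-S1 at day 3 and 0.77 ± 0.12 in NFSa at 6 h (adjusted p = 8.5e-09 and 6.2e-06), the former being 1.83 with the pooled reference. In SCCVII at day 3, its largest rise, the difference was 0.89, and 0.32 with the pooled reference. Mmp2 was 0.77 ± 0.14 higher after carbon ions in #8520 at day 1 and 0.73 ± 0.14 higher in NR-S1 at day 3 (adjusted p = 3.6e-05 and 4.7e-05). Mmp11 in NFSa at day 3 was lower after carbon ions, by a difference of -0.70 ± 0.14 (adjusted p = 9.6e-05). In NR-S1 the differences of Mmp11 at 6 h and day 1, -0.89 and -0.77, became 0.08 and 0.19 with the pooled reference.

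**Figure D4:**
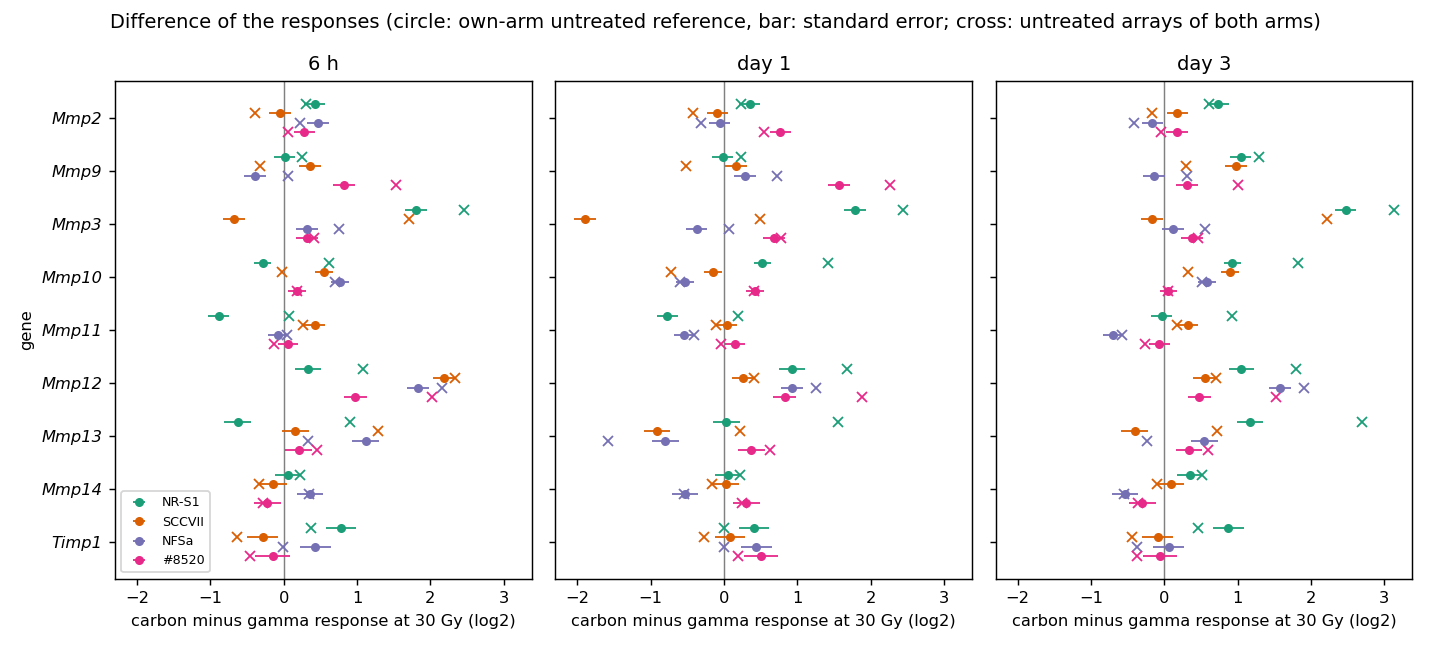
Carbon-ion change minus 30 Gy gamma-ray change (log2, horizontal) of each member by tumour and time, as points with their standard error for each arm's own untreated arrays and as crosses with all 4 untreated arrays of the tumour. The points of Mmp12 lie right of 0 in all 12 cases, and point and cross fall on opposite sides for Mmp3 in SCCVII.

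The gamma doses, which share their untreated arrays, gave 40 higher and 14 lower calls at 50 Gy over 108 pairs, against 10.7% and 18.1% of all gene pairs. Many of these calls came from the arrays of raised floor. There, of 9 members, SCCVII gave 3 higher and 3 lower at day 1, and 3 and 2 at day 3. In #8520 the counts were 7 and 1 at day 1, and 5 and 3 at day 3. The share of all gene pairs without those arrays was not taken. Away from the arrays of raised floor, NR-S1 at day 3 gave the clearest steps, with 50 Gy above 30 Gy by 2.13 for Mmp3, 1.62 for Mmp10 and 1.29 for Mmp13. In NFSa at 6 h the Mmp13 step was 2.67 (adjusted p = 9e-24). Mmp13 in #8520 at 6 h went the other way, at -0.76.

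The carbon-ion response of a member differed between tumours in 25 of 27 F tests over the 4 tumours, where 45%, 58.3% and 61.9% of all genes passed at 6 h, day 1 and day 3. The exceptions were Mmp14 at 6 h (adjusted p = 0.31) and Timp1 at day 1 (adjusted p = 0.32). At day 3 the range between tumours was widest for Mmp10, at 4.02, followed by Mmp12, at 2.26, and Mmp9, at 2.23. The 3 F tests of Mmp12 use the single untreated value of NR-S1. Averaged over tumours with equal weight, the median change of the 9 members after carbon ions at 6 h, day 1 and day 3 came to 0.22, 0.28 and 0.69, against -0.01, 0.01 and -0.08 over all genes.

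The rest of the protease system was described by its mean carbon-ion change over the 4 tumours, at 6 h, day 1 and day 3. Of 15 other metalloproteinase genes listed, 13 were on the array and 7 were tested; 3 were higher at each time and 2, 1 and 3 lower, where 21%, 25.5% and 26.4% of all genes were higher and 19.5%, 16.6% and 41.8% lower. Mmp8, the collagenase of neutrophils, rose by 2.45, 1.65 and 1.66, and 7, 6 and 7 of 8 neutrophil markers rose at these times with medians of 0.61, 0.88 and 0.84. Mmp19 rose by 0.53, 0.57 and 0.81, while Mmp25, a membrane-anchored enzyme of leukocytes, fell by 0.22, 0.35 and 0.33. Of 4 other inhibitors tested, 2, 3 and 2 were higher and 1, 0 and 0 lower. Timp2, which serves Mmp14 in activating Mmp2, had values of 0.06, 0.32 and 1.17, and A2m, a general protease trap, 0.40, 1.13 and 0.13.

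Of 4 plasminogen activators and their inhibitors tested, 2, 1 and 2 were higher and 1 lower each time. Serpinb2, an inhibitor of the plasminogen activators, rose by 1.12, 0.62 and 0.59. Of 16 ADAM and ADAMTS proteases tested, 8, 7 and 7 were higher and 0, 3 and 7 lower. Adamts5, an aggrecan-cutting protease, rose by 1.09 at day 3, and Adam12 fell by 0.82. Among 14 inducers and transcription factors, 6, 4 and 4 were higher and 1, 3 and 5 lower. The cytokine Il1b rose by 2.35, 1.30 and 1.03. The AP-1 subunit Fos had changes of 0.59, -0.28 and 0.29, and Fosl1 0.48, 0.27 and -0.37. Of 12 proteins cut by these enzymes, 2, 4 and 2 were higher and 2, 1 and 4 lower, with Vcan, a proteoglycan, at 0.38, 0.58 and 0.25.

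The genes most like each member were found by the Pearson correlation of group means over the 44 groups after each tumour's mean had been removed. These values are a description, since the groups share tumours, arms and arrays. Mmp9 was most like Atp6v0d2, a proton pump subunit of osteoclasts, at 0.76, and Oscar, a receptor of osteoclasts, at 0.76, followed by Myrfl at 0.72. Mmp10 was most like the stress-induced keratin Krt16 at 0.68 and Mmp13 most like Penk at 0.72. Mmp2 was most like Pon3 at 0.83, Mmp14 most like Ube2r2 at 0.86 and Mmp12 most like Slc39a8 at 0.75. For Timp1 the leading genes were Mcfd2 at 0.73, Borcs6 at 0.72 and Stat3 at 0.69. Mmp3 was most like Tmem220 at 0.77 and Mmp11 most like Sat2 at 0.78. Among the members themselves the highest correlations were those of Mmp11 with Mmp14 at 0.73, Mmp2 with Mmp14 at 0.61 and Mmp10 with Mmp13 at 0.60.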

How the data were processed

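Single-colour Cy5 CodeLink arrays measured total RNA of 4 transplanted mouse tumours on 88 arrays in 44 groups of 2. The deposited values are linear probe intensities that the authors had scaled, with array medians of 1.02 to 1.07; the method of background subtraction and the scaling rule were not given in the sources used here. Of 36227 probes, 21615 had 1 gene symbol, 681 several and 13931 none. From the deposited intensities, log2 was taken, values not above 0 were treated as missing, and each gene was represented by the probe with the highest mean log2. A gene needed a value on at least 80% of arrays, and the dimmest 25% were left out, which kept 13465 genes.

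All 44 groups were fitted together with limma 3.58.1 in R 4.3.3 with the package data.table (version 1.17.8), with 44 residual degrees of freedom and no replicate block. Contrasts were each irradiated group against the untreated arrays of its tumour and arm, carbon ions against 30 Gy gamma rays, 50 Gy against 30 Gy, and untreated tumours and arms against each other. P-values were adjusted by Benjamini-Hochberg over all genes tested, with a threshold of 0.05, and the fit was tested on simulated data. The only precision available is the spread between the 2 arrays of a group, since their number limits it.

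All 9 members are named. From each list of protease, inhibitor, inducer and substrate genes, at most 4 of those with the largest absolute mean carbon-ion change at any time are named, and Mmp8. For likeness, names come from the 3 genes of highest Pearson correlation with each member over group means, each tumour's mean removed. The members and lists were chosen with earlier results of these data known. Alternatives were quantile normalization, median centring, an offset, a common floor, other filters, the mean of a gene's probes, an intensity trend, a replicate block, untreated arrays of both arms as the reference, leaving out the 8 arrays of raised floor and leaving out each array.

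The labels do not say whether arrays of the same number in different groups belong together. Correlations of same-numbered deviations ran from -0.198 to 0.393, and 14 of 64 pairs of groups exceeded 0.1. Their median was highest in the gamma-ray arm of NFSa, at 0.161, so that a pairing there is not settled.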

Additional observations from a re-analysis of the deposited data

Results flagged for a closer look

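Among untreated tumours, 34 sets of 4 arrays were examined for an array that stood apart from the other 3, and 4 sets had such a value. The rate of about 1 in 20 expected for independent, like arrays does not apply here. Each set joins both arms, which differ for many members, and the sets share arrays. All 4 values belong to the carbon-ion arm. In SCCVII, Mmp14 at 5.81 and Timp1 at 5.61 were low on the same array, replicate 2, and Mmp11 was low at 1.82 on replicate 1. In NR-S1, Mmp14 was high at 6.01 on replicate 2.

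The carbon-ion response differed between the 4 tumours by an F test in 25 of 27 cases. Of all genes, 45%, 58.3% and 61.9% passed at 6 h, day 1 and day 3, so such a difference was common. The size of each difference is given as the range of log2 changes over the tumours. At 6 h the range was 0.48 for Mmp2, 0.86 for Mmp9, 1.30 for Mmp3, 0.85 for Mmp10, 1.23 for Mmp11, 1.83 for Mmp12, 0.93 for Mmp13 and 0.87 for Timp1. The widest of these, that of Mmp12, separated SCCVII, where it rose, from NFSa, where it fell. At day 1 the range was 1.26 for Mmp2, 1.85 for Mmp9, 0.97 for Mmp14, 1.59 for Mmp3, 1.13 for Mmp10, 1.84 for Mmp11, 0.82 for Mmp12 and 1.26 for Mmp13. In Mmp9 and Mmp11 the highest value was that of #8520. At day 3 the range was 0.86 for Mmp2, 2.23 for Mmp9, 0.67 for Mmp14, 1.72 for Mmp3, 4.02 for Mmp10, 1.49 for Mmp11, 2.26 for Mmp12, 1.24 for Mmp13 and 1.01 for Timp1. In Mmp10 and Mmp9 the highest value was that of SCCVII. The ranges rest on the untreated arrays of the carbon-ion arm alone, and for Mmp12 in NR-S1 on 1 array, which was assumed to vary like the other groups.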

How the results depend on the processing

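Of 594 member results by tumour, 368 kept their direction and their side of the threshold under every alternative that was run, and 550 were never turned. Median centring, an offset, a common floor, no filter, the mean of probes and the intensity trend turned 0 results and changed the side of the threshold for at most 8 each. Leaving out the dimmest 50% of genes drops Mmp9, Mmp12 and Mmp13, and the counts fell for that reason, to 34 higher and 9 lower after carbon ions, 13 lower after 30 Gy gamma rays, 30 higher and 11 lower after 50 Gy, 7 lower in the mean over tumours, 26 higher between beams, 34 higher and 9 lower between gamma doses, 5 higher between untreated tumours, 5 lower between untreated arms and 16 F tests. Leaving out the 8 arrays of raised floor, and with them their comparisons, gave 25 higher after 50 Gy, and 34 higher and 5 lower between doses. Quantile normalization gave 13 higher between untreated arms in place of 8. The reference of both arms gave 37 lower after 30 Gy gamma rays and 23 lower between beams.

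With the replicate number as a block, 587 of the 594 results were unchanged in call, 7 were no longer called and 0 turned; the lost calls include the step from 30 to 50 Gy of Mmp2 in NR-S1 at day 3 (0.29, limma adjusted p = 0.051). Whether the numbers pair the arrays is not given by the labels. Leaving out each array in turn gave 46 to 54 higher and 14 to 19 lower after carbon ions, 27 to 33 and 23 to 25 after 30 Gy, 45 to 49 and 20 to 23 after 50 Gy, 43 to 51 and 12 to 15 between beams, 53 to 59 and 17 to 19 between doses, 45 to 49 and 14 to 16 in the mean over tumours, 10 to 11 and 37 to 40 between untreated tumours, 6 to 9 and 11 to 13 between arms, and 22 to 25 F tests. The counts between beams and doses include means over tumours and with all arrays were 48 higher and 14 lower between beams and 57 higher and 18 lower between doses.

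Quantile normalization turned 10 results, 8 of them on the arrays of raised floor. These were Mmp2 in SCCVII after 50 Gy at day 1 to 0.38, Mmp3 in #8520 after 50 Gy to -0.47 at day 1 and -0.22 at day 3, and Mmp13 in SCCVII after 50 Gy at day 1 to -1.05. Mmp14 after 50 Gy went to -0.21 at day 1 and -0.21 at day 3 in SCCVII and to -0.42 at day 3 in #8520, and Timp1 in SCCVII after 50 Gy at day 3 to -0.36. The others were the untreated arms of Mmp3 in #8520, to 0.61, and the beam difference of Timp1 in SCCVII at day 3, to 0.42. The cause was not tested.

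The reference of both arms turned 35 results, which follows from the difference between the untreated arms. For Mmp3 this turned the SCCVII 30 Gy gamma change at day 3 to -0.93 and the SCCVII beam difference at 6 h to 1.71, day 1 to 0.49, day 3 to 2.21. For Mmp9 this turned the #8520 30 Gy gamma change at day 3 to -0.23, the SCCVII beam difference at 6 h to -0.32, day 1 to -0.51 and the NFSa beam difference at day 3 to 0.30. For Mmp10 this turned the NR-S1 carbon-ion change at 6 h to 0.32, day 1 to 0.21, day 3 to 0.44, the NR-S1 30 Gy gamma change at 6 h to -0.30 and the NR-S1 50 Gy gamma change at 6 h to -0.32. Mmp10 was also turned in the NR-S1 beam difference at 6 h to 0.61 and the SCCVII beam difference at 6 h to -0.021. For Mmp11 this turned the NR-S1 carbon-ion change at day 3 to 0.41, the NR-S1 30 Gy gamma change at day 1 to -0.33 and the NR-S1 50 Gy gamma change at day 3 to -0.27. Mmp11 was also turned in the NR-S1 beam difference at 6 h to 0.075, day 1 to 0.19, day 3 to 0.92. For Mmp12 this turned the #8520 30 Gy gamma change at day 3 to -0.20 and the NR-S1 50 Gy gamma change at 6 h to -0.060. For Mmp13 this turned the NR-S1 carbon-ion change at 6 h to 0.25, day 1 to 0.14, the SCCVII carbon-ion change at 6 h to 0.31, day 1 to 0.22 and the NR-S1 30 Gy gamma change at 6 h to -0.65. Mmp13 was also turned in the NR-S1 50 Gy gamma change at 6 h to -0.29, the SCCVII 50 Gy gamma change at day 1 to -0.11 and the NR-S1 beam difference at 6 h to 0.90. Mmp13 was also turned in the SCCVII beam difference at day 1 to 0.21, day 3 to 0.72 and the NFSa beam difference at day 3 to -0.24. For Timp1 this turned the NFSa beam difference at day 3 to -0.38.

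With 2 arrays a group, and labels that do not say whether they came from separate animals, these ranges describe the arrays at hand. Mmp12 lay below the highest array floor on several NFSa arrays, which limits how far its fall can be sized.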
